A study of Mus musculus with 21 samples.

Results

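The 40 probes described here, of 1687 on the array, were chosen on measured values for a late signal in the wound bed, the tissue that fills an excised area of skin. In the table the authors deposited for the series, the 1612 probes with a catalogue identifier (M2 and 8 digits) were averaged over the 3 arrays of each group, and 726 of them had a mean of at least 1 in the bed at both day 6 and day 15. For each of these a selection score was taken, the smaller of the bed day 6 and bed day 15 means minus the larger of the intact-skin and bed day 2 means, and the 40 highest scores were kept. The score, on the authors' scaled log scale, was 0.338 for rank 1, 0.210 for rank 2, 0.209 for rank 3 and 0.0891 for rank 20. It was 0.0668 and 0.0665 for ranks 39 and 40, just inside the limit, and 0.0659 and 0.0654 for the 2 probes just outside. The difference of the late bed from intact skin and from the bed at day 2 is therefore how the probes were found and is described without a test. The wound edge played no part in the choice, so changes with time in the edge could be tested.

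All tissue came from C57Bl/KS-db/+ females aged 9 to 13 weeks, so that every group, the control included, was heterozygous for db, which mutates the receptor of the hormone leptin. A square of back skin with sides of 1.5 cm was excised together with the panniculus carnosus, the thin muscle under mouse skin, and the wound was covered with a semipermeable polyurethane dressing. The 21 arrays formed 7 groups of 3, namely shaved intact skin of day 0, wound bed at days 2, 6 and 15, and wound edge at the same 3 days, the edge being a strip of skin 2 mm wide around the wound. The labels give 3 animals for each time point, and it is not stated if bed and edge samples share animals.

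A skin wound is first filled by a clot and by inflammatory cells. Granulation tissue then replaces the clot, with fibroblasts, macrophages and new vessels laying down matrix, and is later remodelled into scar, while keratinocytes from the edge migrate over it. In mouse skin days 6 and 15 are late relative to the inflammatory phase that dominates at day 2, and the bed holds the granulation tissue while the edge is mostly skin with its epidermis and follicles. The catalogue identifiers are not paired with gene symbols in the sources used here. The probes are therefore called by their rank, and neither their functions nor the labelled tissues could be checked against marker genes. In samples of whole tissue, fewer cells of a type and less RNA per cell cannot be told apart.

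Single arrays bore on the choice of probes, and their values come first. On bed day 6 replicate 2 and bed day 15 replicate 3, both scanned on the third of 3 scan days with the other replicates 2 and 3 of the bed, the signal ran with position on the slide. The median deviation of the tested probes from their mean over all arrays went from 1.36 (log2) in grid row 1 to -0.76 in row 6 on the first array, and from 0.88 in row 1 to -1.53 in row 11 on the second. These are ranges of 2.12 and 2.40, against 0.17 to 0.87 on the other 19 arrays. Of the 40 members, 22 lay in grid rows 1 to 3 (55%), where 25.3% of the catalogue probes lie, and 13 lay in row 1. When the rule was applied without both arrays, 21 of the 40 members were chosen again, among them 9 of the 10 highest ranks, and the highest rank not chosen was 6. Of the members in grid rows 1 to 3, 8 of 22 were chosen again, against 13 of the 18 in rows 4 to 12. With each grid row centred on every array, 35 of the 40 were chosen again, the 16 highest ranks included. The part of slide position in the choice of each single member was not tested further.

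**Figure D1:**
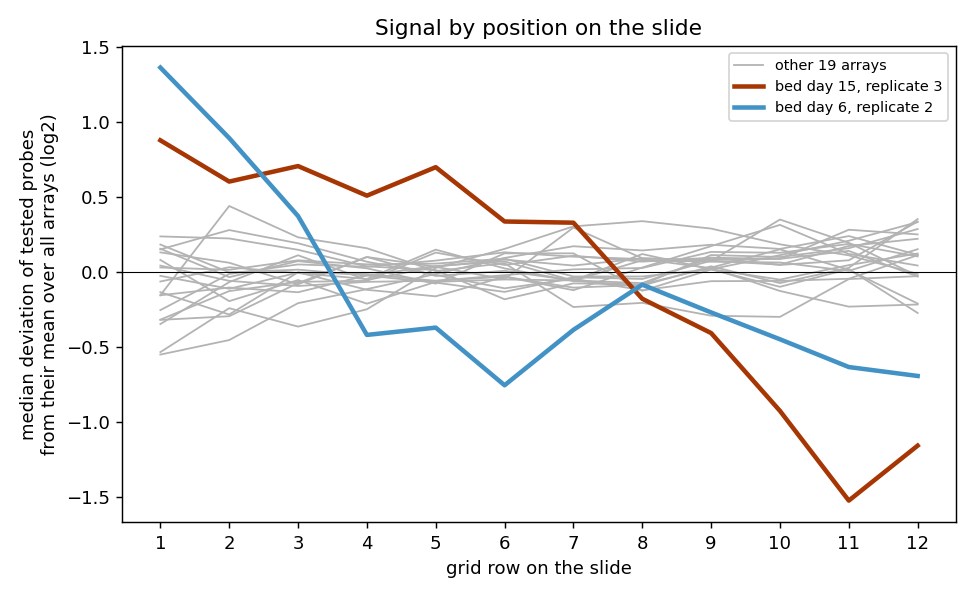
Median deviation (log2) of the tested probes from their mean over all 21 arrays, by grid row on the slide, with 1 line per array. Bed day 6 replicate 2 falls from 1.36 in row 1 to -0.76 in row 6 and bed day 15 replicate 3 from 0.88 in row 1 to -1.53 in row 11, while the other 19 arrays stay within ranges of 0.17 to 0.87.

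Flagged spots touched ranks 34, 37 and 38. All 3 lie in one block of the slide, in grid row 9 and grid column 1, and on bed day 2 replicate 3 the scanner flagged 7 of their 8 spots. The remaining spot gave log2 intensities of 7.16, 7.12 and 7.14, which are 4.51, 3.18 and 5.72 below the next bed day 2 array. In that block 31 of 36 probes had 7 of 8 spots flagged on this array. Without the array the score was 0.0730 for rank 34, -0.0155 for rank 37 and -0.0312 for rank 38, so ranks 37 and 38 were chosen only with that array included. Over all tested probes 8 of the 21 arrays, 3 of the bed and 5 of the edge, correlated better with another group than with their own. The widest gap was that of bed day 15 replicate 1, whose mean correlation was 0.899 with the bed day 2 arrays and 0.808 with the other arrays of its own group.

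In log2 intensity (background-corrected and quantile normalized), the median over the 40 members was 10.42, 10.77 and 10.30 on the 3 intact arrays and 10.64, 10.55 and 10.65 on the bed day 2 arrays. It was 11.64, 12.91 and 11.54 at bed day 6 and 11.61, 12.03 and 12.65 at bed day 15. The highest array of each late group is the one with the slide trend, and the other late arrays also lay above all 6 earlier ones. In the edge the medians were 10.81, 10.59 and 11.07 at day 2, 10.80, 10.83 and 11.25 at day 6, and 10.72, 11.01 and 10.49 at day 15. The edge arrays thus overlapped the intact and bed day 2 arrays, and none reached a late bed array.

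The members differed in how steadily they were high. In 8 of them (ranks 1 to 5, 9, 14 and 17) the signal was above all 6 intact and bed day 2 arrays on each of the 6 late bed arrays. Another 12 were above on 5 of the 6, 7 on 4, 10 on 3 and 3 on 2. The members were chosen on these same arrays, so these counts are a description. Shares over all tested probes were taken for single arrays only. By array, 29, 38 and 23 members were above at bed day 6, beside 20.9%, 29.7% and 17.7% of all tested probes. At bed day 15 there were 19, 27 and 36, beside 12.3%, 18.2% and 31.1%. Bed day 6 replicate 2 was the highest late array for 21 members and bed day 15 replicate 3 for 8, and rank 27 read 13.40 on both replicates 1 and 2 of bed day 6. The 3 members above on 2 arrays were ranks 18, 37 and 38. Rank 20, above on 3, read 10.44, 10.69 and 10.40 in intact skin and 11.11, 13.97 and 9.93 in the bed at day 6, where a single array carried the rise.

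**Figure D2:**
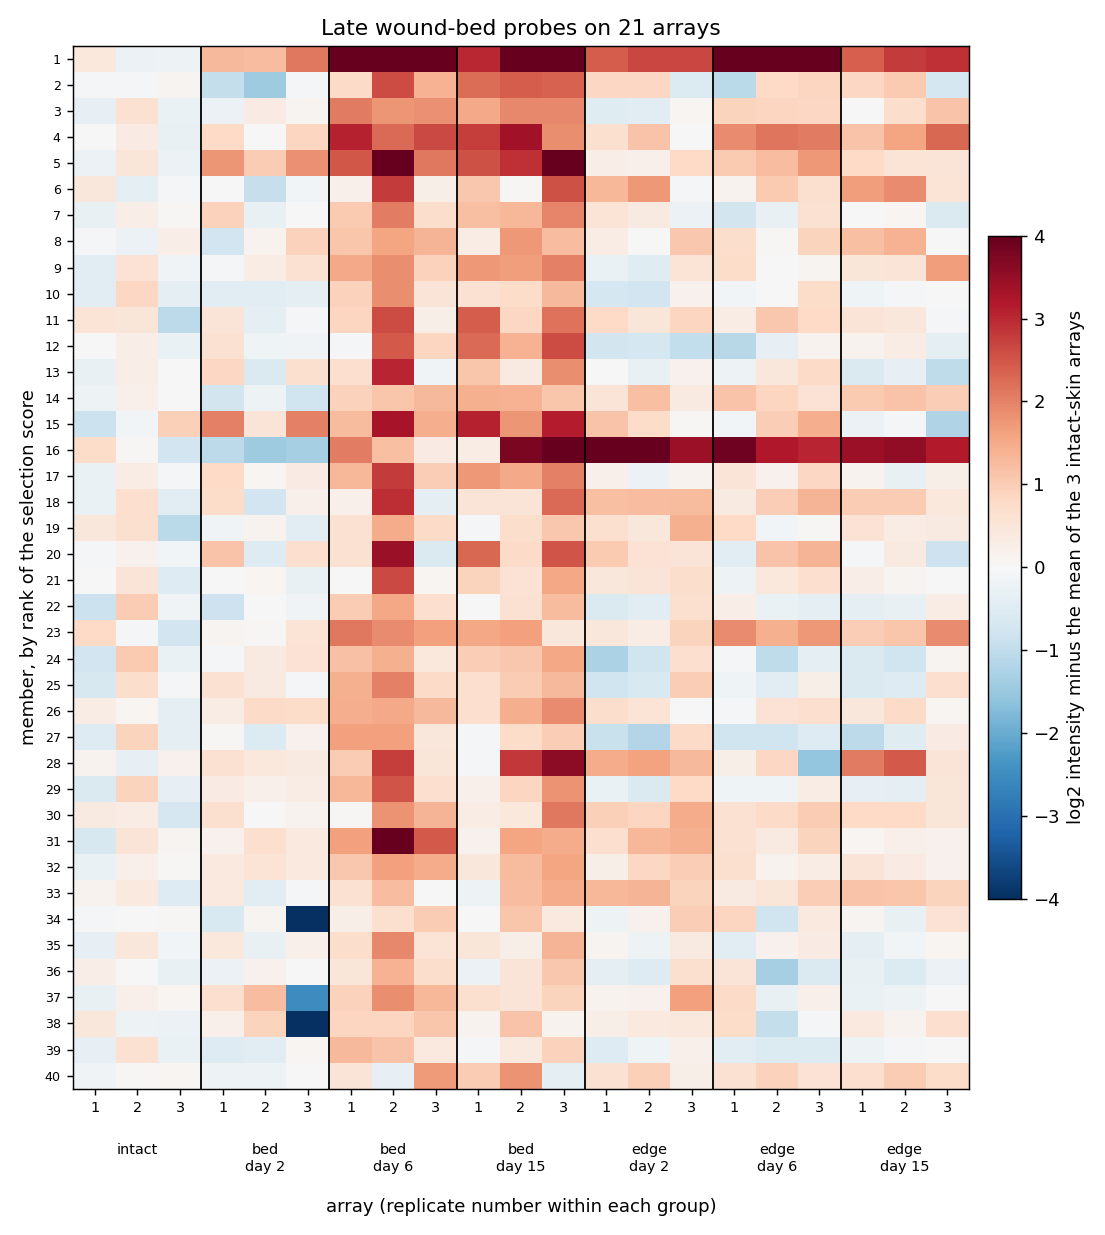
Log2 intensity of the 40 members (rows, by rank of the selection score) on the 21 arrays (columns, 3 per group), as the difference from the mean of the 3 intact-skin arrays, with colours limited to -4 and 4. The late bed columns are red in nearly all rows, most of all replicate 2 of day 6 and replicate 3 of day 15; ranks 34, 37 and 38 are blue on bed day 2 replicate 3, and rank 16 is red in the edge from day 2 on.

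Relative to intact skin, the median difference of the members was 1.22 (log2) for bed day 6 and 1.10 for bed day 15; relative to the bed at day 2 it was 1.21 and 1.06. Nothing is read from these, since the rule fixed their sign. By the limma fit over 974 probes (adjusted p below 0.05) 16 members were called higher at bed day 6 than in intact skin, where 9.34% of all tested probes were called higher, and 16 at day 15, where 5.54% were. Against the bed at day 2 the counts were 11 at day 6 (2.57% of all tested probes) and 11 at day 15 (3.18%). Without the 2 arrays with a slide trend these 4 counts were 11, 13, 7 and 9. The shares of all tested probes called higher were then 9.86%, 6.06%, 2.77% and 1.85%. The members' medians were 0.99, 0.95, 0.81 and 0.91. At day 6, 39 members then lay above intact skin and 36 above the bed at day 2. With each array set to its own median the counts for day 6 were 8 against intact skin (4.83%) and 7 against the bed at day 2 (1.75%). Without bed day 15 replicate 1 the counts for day 15 were 18 against intact skin (6.16%) and 16 against the bed at day 2 (5.34%).

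Between bed day 2 and intact skin 30 of the 40 members lay within 0.5 (log2). The score subtracts the larger of these 2 means and so holds both down, and their likeness is a description. The median difference was 0.10, and no member was called in either direction (8.52% of all tested probes were). Called higher at bed day 2 were 2 members with each array set to its 75th percentile (5.54% of all tested probes) and 3 with grid rows centred (6.57%). There were 2 without bed day 15 replicate 1 (5.34%) and 2 without both arrays with a slide trend (7.49%). At bed day 2 ranks 1, 5 and 15 were over 1 (log2) above intact skin. Rank 16 was over 1 below it, as were ranks 34 and 38 of the flagged block. From day 6 to day 15 the bed mean rose in 18 members and fell in 22, with a median difference of -0.09. The direction depended on the setting. The mean rose in 30 members with each array set to its own median (median 0.34, beside 0.20 over all tested probes). It rose in 24 without bed day 15 replicate 1 (0.10) and in 23 by the authors' deposited values (0.06). It rose in 18 with no background correction (-0.09) and in 16 with grid rows centred (-0.15). In the main fit no member was called (0.719% of all tested probes). With grid rows centred 1 was called lower (1.03%), and without bed day 15 replicate 1 another count was 1 called higher (1.95%). Rank 31 was over 1 (log2) lower at day 15, and ranks 12 and 16 were over 1 higher.

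Rank 1, probe M200000353, had the steepest profile of the members. Its log2 intensity was 8.66, 8.005 and 8.03 on the intact arrays, on none of which it was brighter than 95% of the blank spots. It read 9.53, 9.47 and 10.33 at bed day 2, 14.55, 12.89 and 13.39 at day 6, and 11.24, 13.62 and 13.09 at day 15. In the edge it read 10.65, 10.90 and 10.89 at day 2, 12.51, 12.29 and 12.29 at day 6, and 10.62, 11.02 and 11.15 at day 15. No bed day 6 or day 15 value overlapped the bed day 2 values, and the lowest late value, 11.24, was on the array that resembled bed day 2 overall. The edge values also lay above intact skin on all 9 arrays, with day 6 clear of days 2 and 15. Since the probe was not well above background in intact skin, its fold there is a bound, taken from the lowest signal among probes above background: at least 18.8-fold above it for bed day 6, 9.67-fold for bed day 15, and 2.71-, 7.94- and 2.94-fold in the edge at days 2, 6 and 15.

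Rank 2, probe M200000314, behaved otherwise. It was detected on all 21 arrays and read 12.12, 12.14 and 12.28 in intact skin. In the bed it read 11.22, 10.75 and 12.09 at day 2, 12.94, 14.78 and 13.58 at day 6, and 14.41, 14.61 and 14.55 at day 15. The 3 bed day 2 arrays were below all 3 intact arrays, and the day 15 arrays lay close together at 14.52 ± 0.10 (mean ± SD, n = 3). In the edge the values were spread, at 13.01, 12.99 and 11.63 on day 2, 11.09, 12.98 and 13.05 on day 6, and 12.99, 13.23 and 11.48 on day 15. The edge means, 12.55 ± 0.79, 12.37 ± 1.11 and 12.57 ± 0.95 (SD, n = 3), differed by less than the spread between arrays, and the low array was replicate 3, 1 and 3.

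Ranks 3 and 4 had nearly the same bed mean at both late days. Rank 3 read 10.43, 11.35 and 10.47 in intact skin, 10.51, 11.07 and 10.85 at bed day 2, 12.82, 12.50 and 12.56 at day 6 and 12.27, 12.66 and 12.66 at day 15. Its edge values were 10.27, 10.29 and 10.83 at day 2, 11.65, 11.61 and 11.57 at day 6, and 10.77, 11.46 and 11.89 at day 15. The day 6 edge arrays lay between the intact and late bed arrays and overlapped neither.

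Rank 4 was above background on none of the intact arrays (7.90, 8.25 and 7.63) and on only 1 of the 3 bed day 2 arrays (8.71, 7.95 and 8.79). At bed day 6 it read 11.01, 10.20 and 10.58, and at bed day 15 it read 10.70, 11.29 and 9.79. In the edge it read 8.56, 9.06 and 7.93 at day 2, 9.81, 10.06 and 9.99 at day 6, and 9.07, 9.52 and 10.23 at day 15. The late bed was therefore at least 2.33-fold above intact skin at both days, and the edge at least 1.49-fold at day 6 and 1.17-fold at day 15.

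In rank 5, as in rank 1, the bed at day 2 was already above intact skin on all 3 arrays. Its intact values were 9.24, 9.94 and 9.23, and its bed values 11.25, 10.49 and 11.29 at day 2, 11.96, 13.88 and 11.57 at day 6, and 12.01, 12.38 and 13.77 at day 15. The 2 highest of these were on the arrays with the slide trend, and the probe lies in grid row 2. Without those arrays the means were 11.77 at day 6 and 12.19 at day 15, in place of 12.47 and 12.72. In the edge rank 5 read 9.73, 9.67 and 10.26 at day 2, 10.53, 10.72 and 11.20 at day 6, and 10.27, 10.02 and 9.97 at day 15, so that the edge at day 6 was above intact skin on all arrays and below every late bed array.

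**Figure D3:**
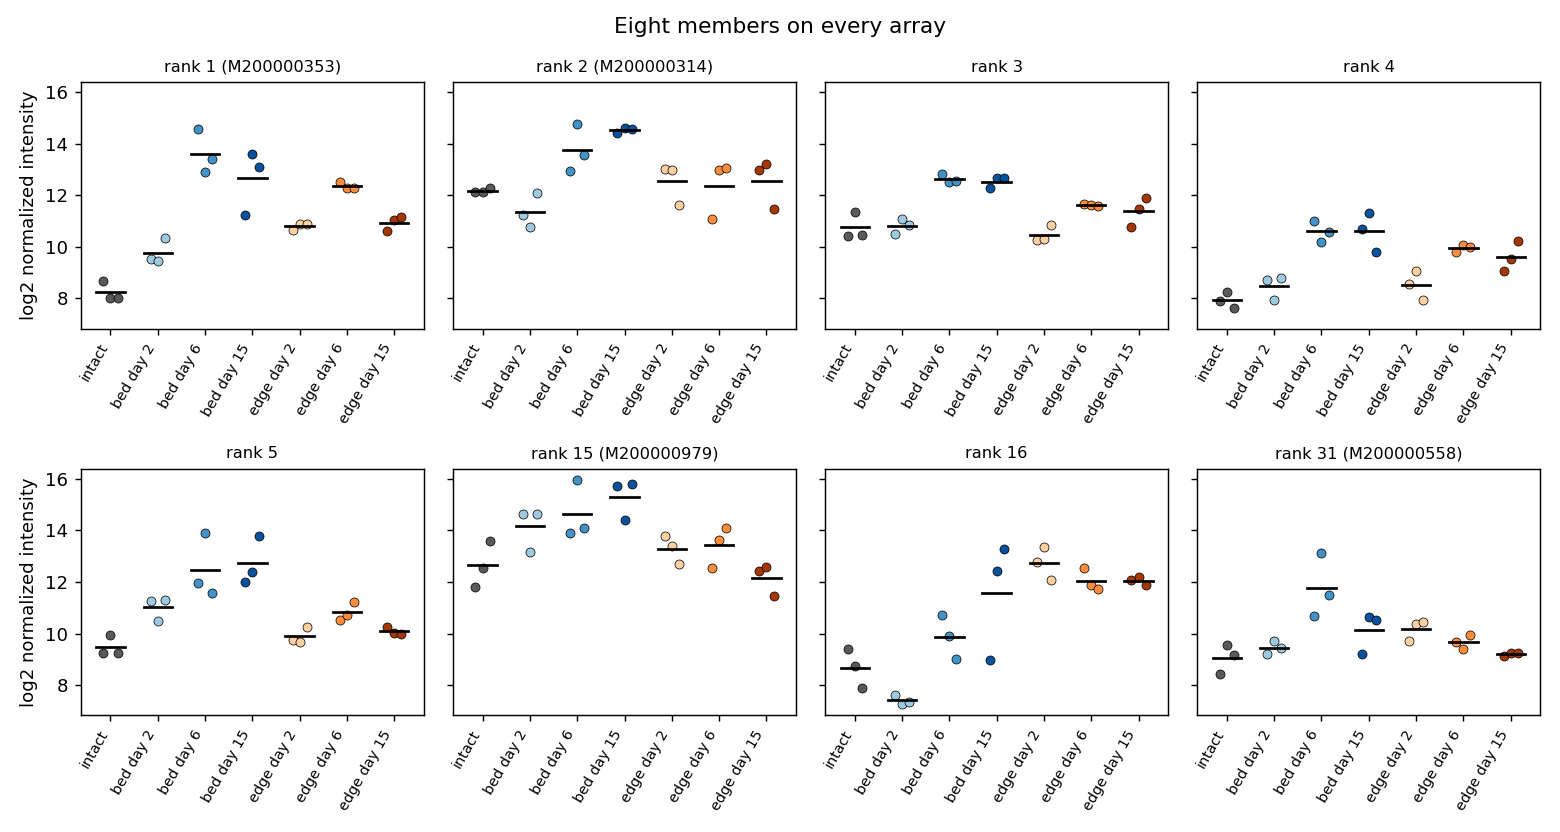
Log2 normalized intensity of 8 members on every array, by group, with 1 point per array and a line at the mean of 3 arrays. Rank 1 peaks at day 6 in bed (mean 13.61) and edge (12.36). Rank 15 has a higher mean in the bed than in the edge on all 3 days, with overlapping arrays at days 2 and 6. Rank 16 is high in the edge at all 3 days. Rank 31 is highest in the bed at day 6 and falls in mean from 10.18 to 9.19 in the edge.

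Rank 16 was high in the edge from day 2 on. It read 9.40, 8.73 and 7.90 in intact skin, 7.63, 7.26 and 7.34 at bed day 2, 10.71, 9.89 and 9.00 at day 6, and 8.97, 12.44 and 13.27 at day 15. In the edge it read 12.79, 13.34 and 12.09 at day 2, 12.56, 11.89 and 11.72 at day 6, and 12.09, 12.21 and 11.86 at day 15. All 9 edge arrays lay above every intact array, every bed day 2 array and every bed day 6 array. The bed at day 15 was split: the array that resembled bed day 2 was low, and the other 2 lay above the edge of that day. At day 2 the edge was at least 13.99-fold above the bed, where the probe was not above background on any array, and it was 1 of 2 members called lower in bed than edge on that day, beside 5.03% of all tested probes.

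Ranks 15 and 31 had the lowest difference between edge day 15 and edge day 2. Rank 15, probe M200000979, read 11.80, 12.54 and 13.60 in intact skin, 14.65, 13.16 and 14.65 at bed day 2, 13.91, 15.94 and 14.11 at day 6, and 15.71, 14.41 and 15.79 at day 15. All 8 of its spots were saturated on 1 bed day 15 array, so that reading is a lower limit. Rank 15 lies in grid row 1. Without the 2 arrays with a slide trend its bed mean was 14.01 at day 6, below 14.15 at day 2, and 15.06 at day 15. It was not chosen again without them. In the edge it read 13.80, 13.39 and 12.70 at day 2, 12.52, 13.64 and 14.11 at day 6, and 12.41, 12.59 and 11.45 at day 15, where the day 15 arrays overlapped intact skin and lay below every late bed array.

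Rank 31, probe M200000558, was above background on no intact array (8.42, 9.55 and 9.17). In the bed it read 9.21, 9.73 and 9.43 at day 2, 10.69, 13.12 and 11.51 at day 6, and 9.23, 10.63 and 10.53 at day 15, with the highest value on an array with the slide trend. The day 6 and day 15 bed arrays did not overlap, by a narrow gap (10.69 against 10.63). Of the 974 tested probes 48 were lower in the bed at day 15 than at day 6 without overlap, 2 members among them. Rank 31 lies in grid row 1. With grid rows centred its bed means were 9.60 at day 2, 11.47 at day 6 and 9.69 at day 15, and it was not chosen again. In the edge it read 9.70, 10.36 and 10.47 at day 2, 9.66, 9.39 and 9.95 at day 6, and 9.11, 9.24 and 9.23 at day 15, all day 15 values being below all earlier edge values.

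The rule chose members with a low intact and a high late bed mean, so the place of the edge between them is partly set by the choice and is described only. The edge mean was above the intact mean in 28 members at day 2, 29 at day 6 and 26 at day 15, with median differences of 0.44, 0.35 and 0.32 (log2). It was within 0.5 of intact skin in 20, 20 and 24 members and over 1 above it in 8, 5 and 8. At day 6 the edge lay between intact skin and bed in 26 members and at or above the bed in 3; at day 15 these numbers were 22 and 4. With each array set to its own median, the edge at day 6 was a median of 0.45 above intact skin and the bed 0.45 above the edge. At day 2 the edge was at or above the bed in 26.

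By the fit over all probes few members were called higher in the edge than in intact skin. At day 2 these were ranks 1 and 16, against 0.308% of all tested probes called higher. At day 6 ranks 1, 4, 16 and 23 were called, against 1.13%, and at day 15 ranks 1, 4 and 16, against 1.33%. The intact arrays served in the choice of the members, so these counts are a description. With no background correction and in the authors' deposited table no member, and no tested probe, was called higher at edge day 2. Rank 23 read 14.61, 13.80 and 13.08 in intact skin and 15.71, 15.26 and 15.57 in the edge at day 6, within the range of the late bed (14.29 to 15.93), with 1 saturated spot on 1 edge day 6 array and up to 7 of 8 on a bed day 15 array.

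**Figure D4:**
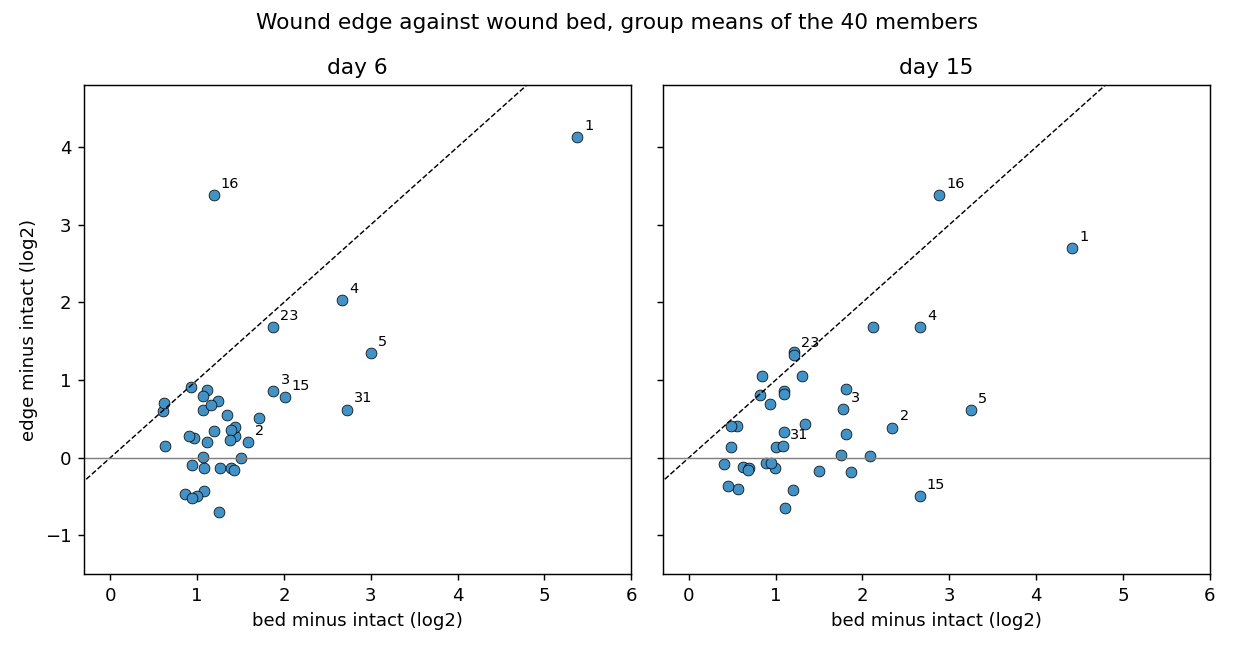
Group means of the 40 members relative to intact skin (log2), bed on the x axis and edge on the y axis, at day 6 (left) and day 15 (right), with 1 point per member and numbers for the ranks named in the text. The dashed line marks equal bed and edge; 26 members at day 6 and 22 at day 15 lie between it and the horizontal line of intact skin, and rank 16 lies above it at both days.

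Set against the edge of the same day, the members' median difference in the bed was -0.26 (log2) at day 2, 1.04 at day 6 and 0.89 at day 15. At day 6 the bed was called higher than the edge in 15 members, beside 8.01% of all tested probes, and lower in 1, rank 16 (8.32%). At day 15 it was called higher in 9 (3.9%) and lower in none (4.31%). Of the members called, the 2 with the largest difference at day 6 were ranks 31 (2.10) and 27 (1.96). At day 15 they were ranks 15 (3.15) and 5 (2.63). Rank 15 was saturated on 1 bed day 15 array and, like rank 31, lies in grid row 1. Its bed and edge means at day 15 were 15.06 and 12.15 without the 2 arrays with a slide trend. With grid rows centred they were 14.87 and 12.39. At day 6 those of rank 31 were 11.10 and 9.67 without both arrays, and 11.47 and 9.91 centred. Those of rank 27 were 12.81 and 11.05, and 13.11 and 11.06, so rank 27 had the larger difference in both settings. Without the 2 arrays with a slide trend 2 members were called higher in the bed at day 6 (3.7% of all tested probes). At day 15 there were 6 (3.8%), and the medians were 0.84 and 0.61. With each array set to its own median the counts were 1 (2.26%) and 5 (2.36%). By the authors' deposited values they were 4 (4.41%) and 5 (2.26%). Bed values of days 6 and 15 were chosen to be high, so no test is read from these differences.

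The edge was then compared between days, the comparison that the choice of members left free. No member was called between day 6 and day 2, where 0.616% of the 974 tested probes were, between day 15 and day 2 (0.411%), or between day 15 and day 6 (0.616%), by limma at an adjusted p below 0.05. At an unadjusted p below 0.05 there were 5, 3 and 3 of the 40 members, beside 51, 36 and 49 of the 974 probes. The members' median differences were -0.02, 0.01 and -0.01 (log2), beside 0.01, -0.01 and -0.02 over all tested probes. Over the 38, 39 and 38 members above background on at least 1 array of both days, single differences ranged from -0.69 to 1.55, from -1.14 to 1.09 and from -1.43 to 0.75. The median 95% interval of a member, not adjusted for the number of probes, reached 1.02 to either side of its difference. Changes of up to about that size could not be told from 0 with 3 arrays a group. With the adjustment larger differences were not called either, such as 1.55 for rank 1 at day 6 against day 2 (limma, adjusted p = 0.359).

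Between day 2 and day 6 the edge arrays did not overlap in 6 members. In 5 of these the edge was higher at day 6, ranks 1, 3, 4, 5 and 23, where 7.7% of all tested probes did not overlap and were higher, and in rank 28 it was lower (3.9%). Rank 1 was higher by 1.55 ± 0.48 (log2, SE; 95% interval 0.51 to 2.59; adjusted p = 0.359), rank 3 by 1.15 ± 0.32 (0.46 to 1.84; adjusted p = 0.189) and rank 4 by 1.44 ± 0.40 (0.58 to 2.31; adjusted p = 0.189). Rank 4 was above background on only 1 of 3 edge day 2 arrays, so its difference is measured against a group mostly at background. These intervals lay above 0 one by one, and the adjusted p-values missed the threshold over 974 probes. Ranks 1 and 3 lie in grid row 8. The tested probes of that row deviated by a median of -0.03, -0.09 and -0.13 (log2) on the edge day 2 arrays. On the edge day 6 arrays they deviated by 0.34, 0.09 and 0.12. With grid rows centred the difference of rank 1 was 1.29. Rank 3 then had edge means of 10.54 at day 2 and 11.43 at day 6. Rank 3 passed in 2 alternative settings, in the authors' own scaling of the arrays (adjusted p = 0.0394) and without the 3 dimmest arrays (adjusted p = 0.0417). Rank 1 passed when only the arrays of the groups compared were fitted (adjusted p = 0.0357); over 19 alternative settings its adjusted p ran from 0.0357 to 0.902. Ranks 5 and 23 were higher by 0.93 ± 0.50 and 1.14 ± 0.39 (SE; adjusted p = 0.998 and 0.469).

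Rank 28 was lower at day 6, with edge values of 9.33, 9.47 and 9.14 at day 2, 8.10, 8.68 and 6.31 at day 6, and 9.93, 10.31 and 8.36 at day 15. It was above background on 0 of 3 edge day 6 arrays and on 2 of 3 at each of the other days, so that its fall is bounded at 1.23-fold at least (adjusted p = 0.952). The lowest reading, 6.31, was on 1 array.

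From day 6 to day 15 rank 1 fell by 1.43 ± 0.48 on the log2 scale (SE; 95% interval -2.47 to -0.40; adjusted p = 0.614) in the edge, and its arrays did not overlap. Without overlap, rank 39 was higher at day 15 (4.52% of all tested probes) and ranks 1, 5, 13 and 31 were lower (8.83%). Rank 1 passed the threshold in this comparison too when only the arrays of the 2 edge groups were fitted (adjusted p = 0.0293; 0.0293 to 0.9999 over 19 settings). Against day 2 its edge at day 15 differed by 0.12 ± 0.48 (SE; 95% interval -0.92 to 1.15), within the spread between arrays.

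Between day 2 and day 15, 3 members were higher in the edge without overlap, ranks 4, 12 and 23 (6.88% of all tested probes), and 8 were lower (7.39%), ranks 13, 15, 18, 20, 21, 30, 31 and 37. The difference was -1.14 ± 0.61 for rank 15 (log2, SE; 95% interval -2.44 to 0.16; adjusted p = 0.9998) and -0.99 ± 0.48 for rank 31 (-2.02 to 0.05; adjusted p = 0.9998), and both intervals hold 0. Of the 8 lower members, all but rank 37 lie in grid row 1 of the slide. The tested probes of that row deviated by a median of 0.03, 0.04 and 0.15 (log2) on the 3 edge day 2 arrays and of -0.16, -0.03 and -0.55 on the edge day 15 arrays. With grid rows centred the differences of ranks 15 and 31 were -0.82 and -0.67, and neither was called.

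**Figure D5:**
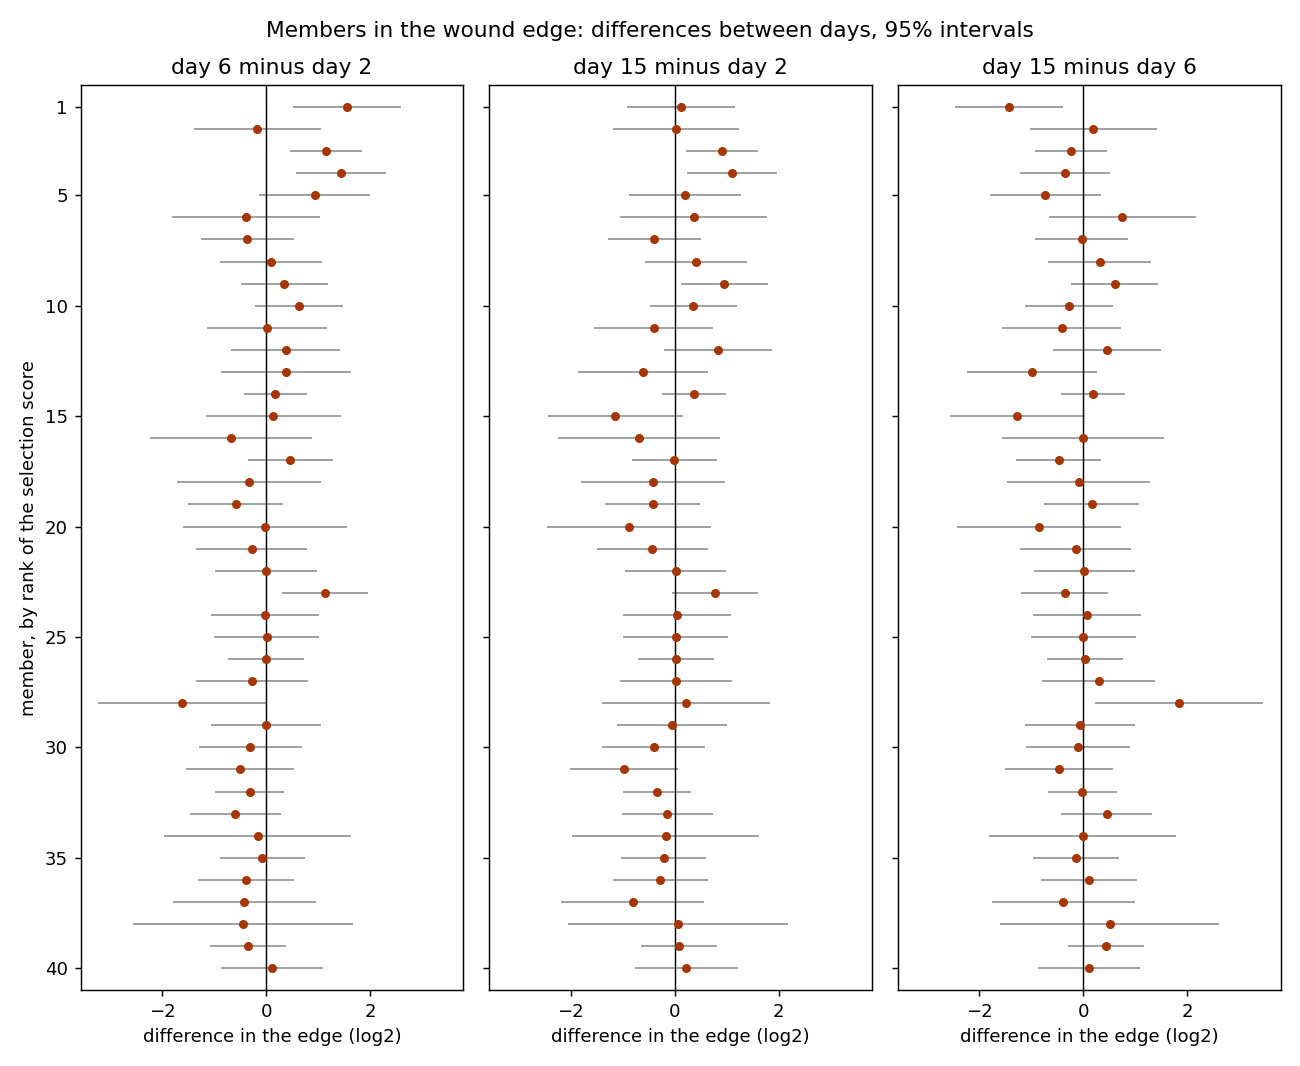
Differences between days in the wound edge (log2) for the 40 members, by rank, with 95% intervals from the fit over 21 arrays. Points scatter on both sides of 0 in all 3 panels; rank 1 is at 1.55 for day 6 minus day 2, 0.12 for day 15 minus day 2 and -1.43 for day 15 minus day 6, and no member passed an adjusted p of 0.05.

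The edge arrays were scanned on 2 of the 3 days, replicates 1 and 2 on the first and replicate 3 on the second. Within the first scan day the members' median edge differences were 0.02 for day 6 against day 2, 0.04 for day 15 against day 2 and -0.02 for day 15 against day 6. Within the second, with 1 array a group, they were -0.04, -0.30 and -0.12. Rank 1 was higher at day 6 than at day 2 within both scan days, by 1.62 and 1.40, as were rank 3 (1.35 and 0.75), rank 4 (1.13 and 2.07) and rank 5 (0.92 and 0.95). Rank 2 went opposite ways, at -0.97 and 1.42. The bed shared only the second scan day with intact skin, with 1 bed array a group. There the members' median difference was 0.87 at day 6 and 0.63 at day 15, and 38 and 32 of the 40 members were above intact skin. On the third scan day, which held both arrays with a slide trend, the medians against bed day 2 were 1.47 and 1.37, against 0.74 and 0.77 on the second.

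The members did not share one profile in the edge. Over the 9 edge arrays the members most like rank 1 were ranks 5, 23 and 3, with Pearson correlations of 0.792, 0.728 and 0.685, while the median correlation of rank 1 with the other members was 0.03 and the lowest -0.803. Those most like rank 2 were ranks 26, 6 and 7 (0.959, 0.824 and 0.789), with a median of -0.04. These are descriptions over 9 arrays that share scan days and signal levels, and of members picked for their late rise in the bed.

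The choice itself was followed in arrays left out of it. With the rule applied to 11 of its 12 arrays, 23 to 39 of the 40 probes so chosen lay on the rule's side in the array left out, 57.5% to 97.5%, beside 29.7% to 45.0% of all candidates. The means it was set against came from the arrays that made the choice. The excess over the candidates is thus partly set by the choice and is a description only. The lowest of these was for bed day 6 replicate 3, where 23 probes were above the larger of the 2 early means. The 40 chosen without an array shared 26 to 36 probes with the 40 members, the fewest without bed day 6 replicate 2, and 11 members were chosen in all 12 settings, ranks 1 to 5, 7 to 10, 14 and 25. The members that were chosen again without both trend arrays had median differences from intact skin of 1.38 and 1.21 (log2) in the bed at days 6 and 15. Without both arrays these were 1.14 and 1.27. In the edge at days 2, 6 and 15 the median differences were 0.42, 0.40 and 0.43. For the other 19 members these were 1.08 and 1.10 in the bed with all arrays, 0.64 and 0.73 without both, and 0.57, 0.34 and 0.03 in the edge. The score without both arrays made this split, so the smaller bed differences of these 19 without them are partly set by the choice.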

How the data were processed

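The members and the alternatives were chosen with earlier results of these data known. Each of the 21 samples was measured on 1 array in 1 colour (Cy3), from 500 ng of amplified total RNA per the labels' protocols. An array held 13824 spots, 8 for each of 1687 probes, and 328 that were blank or empty. The scanner output deposited by the authors gives linear spot intensities and, as another value, a flag per spot with no stated meaning. A series table deposited by the authors gives a scaled score per probe. It was rebuilt from the scanner output to within 0.00119 as the log of the mean signal over spots without flag 1, scaled on each array so that the median was 1 and the SD was 0.2. That settles its scale, centring and direction.

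Signal means were corrected against the local background medians by normexp (offset 50) with limma 3.58.1 in R 4.3.3, log2 values were averaged over a probe's spots that lacked flag 1, and the arrays were quantile normalized, which hides any shift that most probes share. A probe was detected on an array when its mean was brighter than 95% of the array's blank and empty spots. Between 487 and 934 probes were detected on an array, and the number of arrays limits the precision. The 974 probes detected on at least 3 arrays, among them all 40 members, entered 1 limma fit of 7 group means over 21 arrays (14 residual degrees of freedom). P-values were two-sided and adjusted within each comparison over all 974 (Benjamini-Hochberg). They measure only the spread between these samples, which may be technical, since the labels give 3 animals per time point but tie no sample to one.

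The 3 comparisons between edge days were tested, and 12 others are described. The planned rule for named genes allowed 4 identifiers where probes have no gene symbol, the 2 highest scores and the 2 lowest differences of edge day 15 against day 2; other members are called by rank, and those given in full outside this rule were chosen after their values were seen. Lists of matrix, protease, proteoglycan, growth factor, cytokine, adhesion and cell type marker genes could not be applied, since the probes are not paired with gene symbols. The same holds for probe sequences, so none are shown.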

Additional observations from a re-analysis of the deposited data

Results flagged for a closer look

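In rank 21 the edge and the bed moved opposite ways from day 2 to day 15. Its edge difference was -0.43 (log2), all 3 edge day 15 arrays (9.83, 9.68 and 9.59) lying below all 3 edge day 2 arrays (10.03, 10.09 and 10.28), while its bed difference was 1.08, all 3 bed day 15 arrays lying above all 3 bed day 2 arrays. Rank 21 lies in grid row 1, and with grid rows centred its edge difference was -0.11 and its bed difference 0.49. The difference between bed and edge was not tested, since the rule fixed the direction in the bed.

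The rule passed over 75 probes with public identifiers, of which 31 had both bed means at the minimum. The score of 4 of these reached that of rank 40, at 0.126, 0.118, 0.0728 and 0.0722, and these probes belong to no comparison above. The probe with a score of 0.126 read 12.04, 12.12 and 11.07 (log2) in intact skin, 13.04, 12.16 and 12.87 at bed day 2, 14.65, 13.48 and 13.52 at bed day 6 and 14.29, 14.45 and 12.51 at bed day 15. The 3 bed day 6 arrays lay above all earlier ones, and 1 bed day 15 array overlapped them.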

How the results depend on the processing

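Of the 40 members, 26 to 36 were chosen again when 1 of the 12 arrays was left out, the fewest without bed day 6 replicate 2. The arrays of scan day 2 alone gave 11, and group medians in place of means 25. Leaving out both arrays with a slide trend, an alternative chosen after seeing the data as was centring each grid row, gave 21. For edge day 6 against day 2 the count of members called, 0, became 1 in 3 settings: the authors' deposited table (rank 3), leaving out the 3 dimmest arrays (rank 3) and fitting only the arrays compared (rank 1). For day 15 against day 6 it became 1 when only the arrays compared were fitted (rank 1). The counts over all tested probes were small and moved: from 6 to 3 with probes detected on at least 9 arrays, to 11 without the 3 dimmest arrays and to 4 to 10 with 1 array left out, the most without edge day 2 replicate 3 (day 6 against day 2); from 4 to 1 without the 3 dimmest arrays and to 2 to 4 with 1 left out, the fewest without edge day 15 replicate 3 (day 15 against day 2); and from 6 to 0 with probes detected on at least 9 arrays and to 2 to 3 with any 1 array left out (day 15 against day 6). The causes were not tested. With each array set to its own median in place of quantile normalization, the members' median difference of bed day 6 against edge day 6 was 0.45 in place of 1.04, while the median over all tested probes moved to -0.37. No result changed direction beyond the spread between arrays in the settings run.

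Replicate numbers were not used to pair the arrays in the main fit. Deviations of same-numbered arrays correlated at -0.409 to 0.604 over 63 pairs, 13 of them above 0.1. In the edge groups they correlated at -0.368 to 0.604 with a median of 0.297, 5 of 9 above 0.1. Some same-numbered edge arrays thus deviated together, and edge replicate 3 also had its own scan day. With the replicate number as a block 0 members were called in the 3 edge comparisons. Of all tested probes 5, 3 and 6 were called, in place of 6, 4 and 6. On the dimmest arrays, edge day 15 replicate 3, edge day 2 replicate 3 and intact replicate 2, the median spot was 1.24 to 1.27 times its local background, which limits what dim members can show in the edge.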
